A study of Mus musculus with 12 samples.

Results

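The clustered replication-dependent histone genes encode the proteins that package newly copied DNA. They were taken here as every protein-coding gene of the expression table whose symbol begins with Hist1h, Hist2h, Hist3h or Hist4h. This gave 67 genes of the 52550 in the table, of which 21950 are protein-coding, and left out 3 rows with the same kind of symbol but another biotype. Of the 67 genes, 6 encode the linker histone H1, 18 encode H2A, 18 encode H2B, 12 encode H3 and 13 encode H4. In GRCm38, 54 of them lie in the Hist1 cluster on chromosome 13 (chr13:21715763-23934851), 10 in the Hist2 cluster on chromosome 3 (chr3:96219865-96270132), 2 in Hist3 on chromosome 11 (chr11:58948920-58956830), and Hist4h4 alone on chromosome 6 (chr6:136801553-136804415). RNA was sequenced from 12 cultures of D2A1 and D2.OR, mouse mammary tumor cell lines, each from a tumor of its own mouse. D2A1 keeps proliferating on Matrigel, a basement membrane extract, and D2.OR is used there as a model of tumor cell dormancy. Each line was grown directly on plastic (2D) or as single cells on top of growth-factor-reduced Matrigel (3D) in a low-serum medium with hydrocortisone, cholera toxin and insulin, and 10 wells were pooled for RNA. For the RNA cultures the study's methods refer to a section that gives DMEM for cells in 2D, while another section gives the low-serum medium for 2D cultures set beside Matrigel. Culture and medium may thus differ together. There were 3 replicates in each of the 4 groups (D2A1 2D, D2A1 3D, D2.OR 2D and D2.OR 3D), and the replicate number is also the batch. The study states in general that findings rest on at least 3 biological repeats, without saying for these libraries how the cultures were kept apart, and the p-values measure the spread between these samples.

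Replication-dependent histone genes are transcribed mainly in S phase, when each round of DNA synthesis needs a new set of histones. Their mRNAs are the only known animal mRNAs without a poly(A) tail: they end just after a conserved stem-loop, which is bound by the stem-loop binding protein SLBP, cut with the help of the U7 snRNP (a small ribonucleoprotein), and degraded when replication stops. Some members also give longer, polyadenylated transcripts, which are known from cells that have left the cell cycle. A library made from poly(A) RNA therefore captures the longer transcripts better than the stem-loop form. The series is described as mRNA sequencing of total RNA extracts, and how mRNA was selected and whether libraries kept strand are not given in the sources used here.

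The stem-loop was searched for in the annotated transcripts (GENCODE M21 on GRCm38), in which 62 of 62 members with a single transcript had the length given in the deposited table. A match needed fully complementary arms of 6 bases, starting with GG, around a TTTA or TTTC loop, so a stem with a mismatch was not counted. Such a stem-loop was present in 41 of the 67 members and in 84 of all 141767 annotated transcripts (0.0593%). The 16-base stem-loop was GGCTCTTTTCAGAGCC in 26 members, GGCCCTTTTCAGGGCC in 7, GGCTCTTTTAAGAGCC in 6 and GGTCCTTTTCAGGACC in 2. The 6 below carry it in genes that the results turn on, with 5 bases on each side, written 5′ to 3′ as DNA with the stem-loop in capitals.
Hist1h1c: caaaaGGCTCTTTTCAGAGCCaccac
Hist2h2aa2: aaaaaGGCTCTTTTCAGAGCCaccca
Hist1h2bj: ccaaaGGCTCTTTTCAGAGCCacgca
Hist1h3b: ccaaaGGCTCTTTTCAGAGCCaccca
Hist1h4h: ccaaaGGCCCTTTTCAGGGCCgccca
Hist1h4b: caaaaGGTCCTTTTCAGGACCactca
The annotated transcripts end in different ways. In 21 members the transcript ended within 100 bases of the stem-loop, as it did 23 bases after it in Hist1h2bj, 51 bases after it in Hist1h3b and 28 bases after it in Hist1h4b. In 20 members it ran on past that distance, by 840 bases in Hist1h1c. In 26 members no stem-loop was found in the annotated transcript, and 19 of those ended within 100 bases of the stop codon. The other 7 had a longer annotated end in which none was found, taking the longest end where a gene has several transcripts. They include Hist1h2bc, which runs 742 bases past the stop codon, Hist2h2be with 2192 bases and Hist1h4i with 376 bases.

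Upstream of the genes, RefSeq promoter windows (GRCm38.p6, 250 bases before to 50 bases after the start) were matched for 62 members. CCAAT, on either strand, was in 53 of these windows (85.5%) and in 37.4% of all 32851 promoter windows, and by class in every matched H1, H2A, H2B and H3 gene but in 3 of 12 H4 genes. TATAAA was in 56.5% of the members' windows and in 13.6% of all windows. ATTTGCAT, the octamer bound by POU factors, was in 13 members, all of them H2A or H2B genes, or 21% against 1.74% of all windows. AAACACA, the element named for H1 promoters, was in 5 of 6 H1 genes and in 14.5% of all members, against 7.18% of all windows. Each motif was searched on both strands, the end of TATAAA can be the start of the H1 element, and a match is a description of the sequence only. The 250 bases before the RefSeq start are shown for Hist1h1c, the most abundant member, and for Hist1h2bj and Hist1h3b, which rose in D2A1 cells on Matrigel. All 3 are on the plus strand, and matches to these motifs on either strand are in capitals.
Hist1h1c, chr13:23738557-23738806: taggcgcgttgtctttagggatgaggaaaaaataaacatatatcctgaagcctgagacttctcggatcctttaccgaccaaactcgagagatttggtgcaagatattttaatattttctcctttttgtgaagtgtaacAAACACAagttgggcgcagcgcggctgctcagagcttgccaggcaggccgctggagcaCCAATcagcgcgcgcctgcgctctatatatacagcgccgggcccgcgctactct
Hist1h2bj, chr13:22042948-22043197: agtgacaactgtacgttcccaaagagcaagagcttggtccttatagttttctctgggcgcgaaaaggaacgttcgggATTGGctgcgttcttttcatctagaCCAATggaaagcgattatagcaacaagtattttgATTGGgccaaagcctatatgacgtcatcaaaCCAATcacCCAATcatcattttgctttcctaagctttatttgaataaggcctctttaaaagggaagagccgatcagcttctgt
Hist1h3b, chr13:23752095-23752344: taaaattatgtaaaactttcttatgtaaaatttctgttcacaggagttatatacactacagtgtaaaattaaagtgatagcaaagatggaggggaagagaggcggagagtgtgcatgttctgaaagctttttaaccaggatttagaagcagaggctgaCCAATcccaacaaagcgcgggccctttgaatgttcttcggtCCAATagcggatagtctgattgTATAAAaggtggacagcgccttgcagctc

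Most of the histone genes were present at very low levels, and a few members made up most of the RNA of the family. The libraries held 47589611 to 73325069 expected counts, median 61747126. A gene was called detected in a group when each of its 3 libraries held at least 10 expected counts. By this rule 29 of 67 members were detected in D2A1 2D, 43 in D2A1 3D, 23 in D2.OR 2D and 28 in D2.OR 3D. In all, 44 members (65.7%) were detected in at least 1 group and 19 in all 4 groups. The largest number was in D2A1 on Matrigel, whose library depths lay within the range of D2.OR 2D. They were all above those of D2A1 2D, at 62054222 to 66087229 against 47589611 to 58932784 expected counts. The part of depth in these numbers was not tested. By a mean of at least 1 TPM instead, 30 members passed in D2A1 2D, 47 in D2A1 3D, 21 in D2.OR 2D and 30 in D2.OR 3D. By class, 5 of 6 H1 genes, 13 of 18 H2B genes, 10 of 12 H3 genes, 9 of 13 H4 genes and 7 of 18 H2A genes were detected in at least 1 group. The mean level over all 12 libraries, in TPM (a transcript's share of the library after scaling for its length), was at least 10 in 6 members, from 1 to under 10 in 24 and under 1 in 37.

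The 6 most abundant members were Hist1h1c, which encodes a linker histone of somatic cells (chr13:23738808-23740367, mean 84.0 TPM), Hist1h2bc, an H2B gene (chr13:23684199-23692908, 34.4 TPM), Hist2h2aa2, an H2A gene (20.3 TPM), the H2B genes Hist1h2br (14.9 TPM) and Hist1h2bq (10.2 TPM), and the H4 gene Hist1h4i (12.7 TPM). Hist3h2a was next, at 5.88 TPM. The most abundant H3 genes were Hist2h3b (3.90 TPM) and Hist1h3g (3.58 TPM), the second H4 gene was Hist1h4h (4.77 TPM), and the second H1 gene was Hist1h1b, at 1.92 TPM. Nucleosomes hold the core histones in equal amounts. The summed level, as a mean over the 12 libraries, was 88.0 TPM for H1, 38.4 TPM for H2A, 78.0 TPM for H2B, 22.3 TPM for H3 and 31.5 TPM for H4.

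Levels were also set beside the annotated end of the transcript. The 7 members with a longer end and no stem-loop had a median level of 10.2 TPM. That is the value of Hist1h2bq, a gene that shares reads with Hist1h2br. Both are in this group by the longest of their transcripts, 2015 and 2197 bases. The lengths deposited for them, 419 and 428 bases, are near their shortest, 381 bases, so their place in the group is uncertain. The group's median and its share of the sum below both include them. The other groups had medians close to each other and ranges that overlap. The median was 0.735 TPM in the 21 that end at the stem-loop, 0.894 TPM in the 20 that run on past it, which include Hist1h1c, and 0.941 TPM in the 19 that end near the stop codon. No test was run of these groups. Of the family's summed TPM, 42.8% was in the genes that run on past the stem-loop, 29.6% in those with a longer end and no stem-loop, 16.5% in those that end at the stem-loop and 11% in those that end near the stop codon. Hist2h2aa2 was the highest of the genes that end at the stem-loop, at 8.66 to 38.5 TPM. The part that RNA selection or the annotated length has in these levels was not tested.

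**Figure D1:**
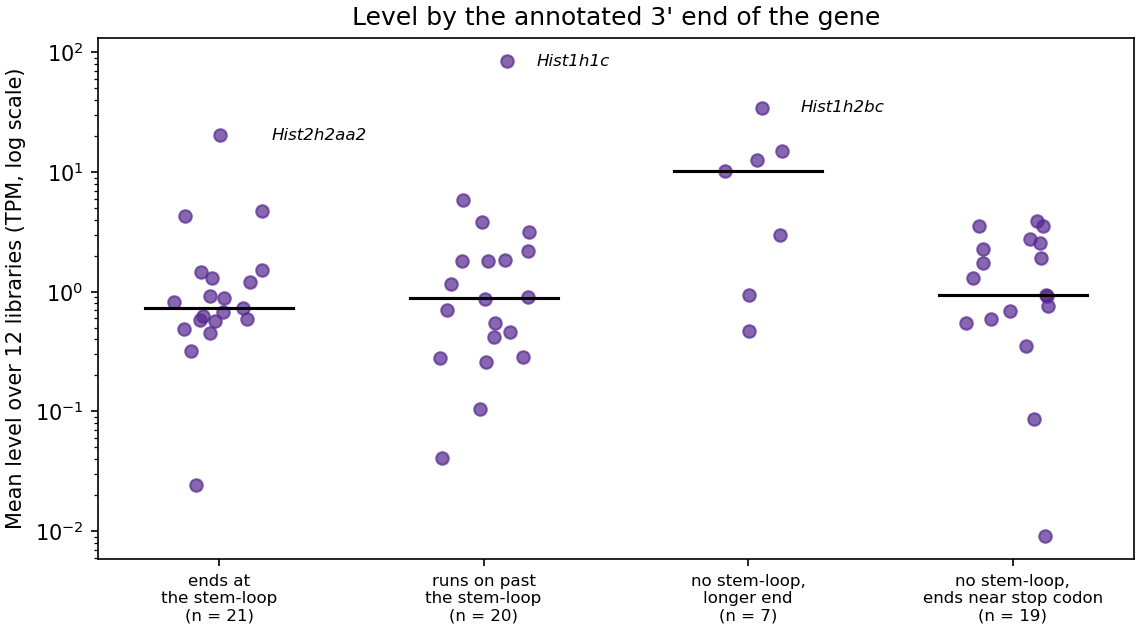
Mean level over the 12 libraries (TPM, log axis) of each histone gene, grouped by how its annotated transcript ends. Each point is a gene, the line is the group's median, and 2 genes at 0 (Hist1h4m and Hist1h2ba) are counted but not drawn. The group with a longer end and no stem-loop has the highest median, 10.2 TPM, the value of Hist1h2bq, placed there by its longest transcript. Hist1h1c, Hist1h2bc and Hist2h2aa2 stand above the rest.

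Reads of near-identical genes limit several of these values. Expected counts are estimates that share out reads fitting several genes, and 55 of the 67 members had a count that was not whole in at least 1 library. Hist1h2bq and Hist1h2br show it most plainly. In D2A1 2D, Hist1h2bq was given as 14.7, 0.20 and 0.03 TPM in replicates 1 to 3 and Hist1h2br as 14.6, 18.6 and 13.5 TPM, so that the division between them changed from library to library. Their sum was 20.5 ± 8.01 TPM in D2A1 2D, 16.2 ± 3.41 in D2A1 3D, 21.9 ± 6.97 in D2.OR 2D and 41.9 ± 8.35 in D2.OR 3D (SD, n = 3 each). The pair Hist2h2aa1 and Hist2h2aa2 was also split unevenly, with Hist2h2aa1 at 0 in 6 libraries, including all 3 of D2A1 3D. The sums of such pairs are better defined than either member.

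The summed level of all 67 genes differed little between cultures in D2A1 and was higher in 3D than in 2D in each D2.OR batch. In D2A1 it was 265, 267 and 208 TPM in 2D (246 ± 33.2, SD, n = 3) and 250, 273 and 254 TPM in 3D (259 ± 12.3). In D2.OR it was 262, 179 and 161 TPM in 2D (201 ± 54.1) and 374, 352 and 254 TPM in 3D (326 ± 63.9), or 1.43, 1.96 and 1.58 times as much in 3D within batches 1, 2 and 3. The 2D and 3D libraries overlapped in both lines when batches were set aside. The sum hides opposite values of its parts in D2A1. There, Hist1h1c and Hist1h2bc together came to 0.832, 0.541 and 0.568 of their 2D level in the 3 batches, and the other 65 genes to 1.04, 1.49 and 1.87 times theirs. In D2.OR both parts were higher in 3D in every batch, by 1.38 to 1.71 times for Hist1h1c and Hist1h2bc and by 1.37 to 2.26 times for the other 65. In bulk RNA, a change in the share of cells in S phase and a change in histone mRNA in each cell cannot be told apart.

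**Figure D2:**
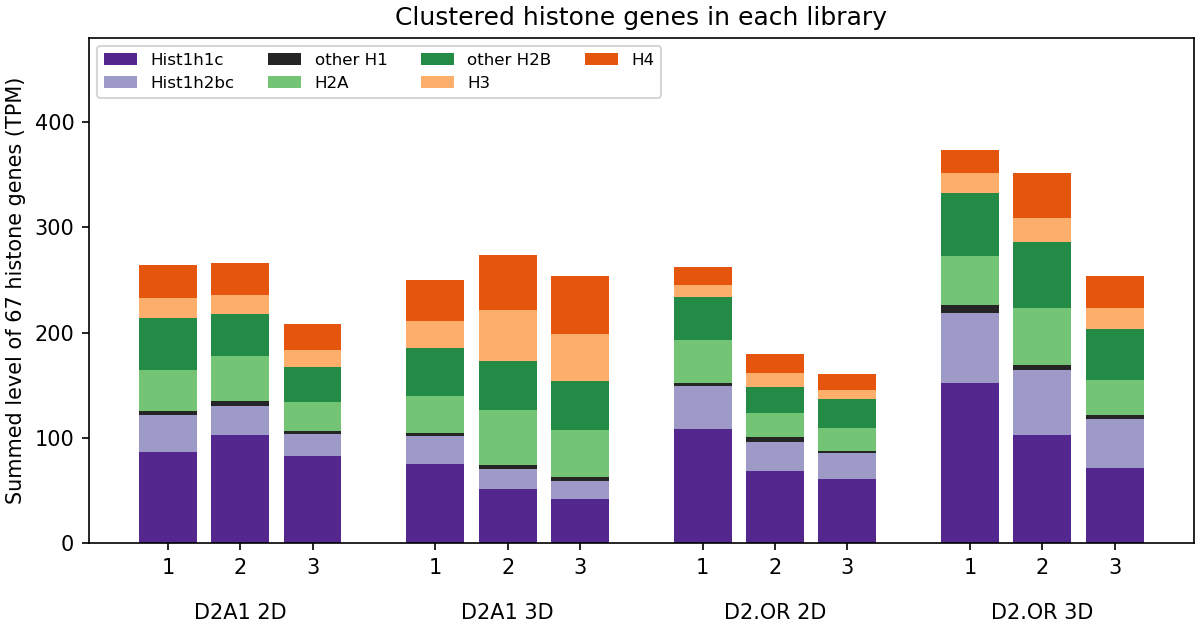
Summed TPM of the 67 histone genes in each library (replicates 1 to 3 of each group), stacked by Hist1h1c, Hist1h2bc and the other genes of each class. Hist1h1c and Hist1h2bc took 23.2% to 40.5% of the sum in D2A1 3D and 46.1% to 58.6% in the 9 other libraries, and the H3 and H4 segments are tallest in replicates 2 and 3 of D2A1 3D.

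By class, the H3 and H4 sums were higher in 3D than in 2D in D2A1 and the H1 sum was lower, with no overlap in any of the 3. The H1 sum, most of it Hist1h1c, was 90.2, 107 and 85.6 TPM in D2A1 2D and 79.3, 55.6 and 46.1 TPM in D2A1 3D. In D2.OR it went the other way within batches, at 1.42, 1.48 and 1.19 times its 2D level in 3D, though the cultures overlapped. The H2A sum overlapped between cultures in both lines, at 0.893, 1.2 and 1.63 times its 2D level in the D2A1 batches and 1.15, 2.37 and 1.49 times in the D2.OR batches. The summed level of the 12 H3 genes was 19.0, 17.8 and 15.9 TPM in D2A1 2D and 25.6, 48.2 and 44.6 TPM in D2A1 3D. That of the 13 H4 genes was 32.0, 30.8 and 24.7 TPM in 2D and 39.5, 52.1 and 55.1 TPM in 3D. In D2.OR the H3 sum was 12.1, 13.3 and 8.92 TPM in 2D and 18.8, 22.4 and 20.6 TPM in 3D, again with no overlap, and the H4 sum was 16.7, 17.3 and 15.1 TPM in 2D and 22.4, 42.7 and 29.9 TPM in 3D. The H2B sum in D2A1 was 84.2, 67.4 and 54 TPM in 2D and 71.0, 65.5 and 62.9 TPM in 3D, which overlap, while in D2.OR it was 80.7, 53.3 and 51.1 TPM in 2D and 126, 125 and 94.9 TPM in 3D, which do not.

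The first comparison asked how the lines differed in each culture. It used edgeR's quasi-likelihood test on all 12 libraries with batch as a block, and adjusted p-values by Benjamini-Hochberg over the 16823 genes that passed the filter on low counts, with a threshold of 0.05. Of the 67 members, 53 passed that filter, and some did so only through the group where they were high, so the counts of members below are a description. In 2D, 8 members were lower in D2.OR and 1 was higher, together 17% of the 53, where 49.8% of all genes tested differed (24.4% lower and 25.4% higher). Their median log2 fold change was -0.54, and that of all genes was -0.0034. In 3D, 15 members were lower in D2.OR and 2 were higher, together 32.1%, where 53.8% of all genes differed (26.1% lower and 27.7% higher), with a median of -0.58 for the members and 0.00052 for all genes. Of the 16 members with a mean of at least 50 counts, 2 were higher and 2 were lower in 3D, with a median of 0.04. The share of members called was thus below that of all genes in both cultures, and whether it differed was not tested. In both cultures 4 members were called, out of 9 in 2D and 17 in 3D. The count in 3D was 8 without replicate 2 of every group, 9 without replicate 3 and 11 without D2A1 3D replicate 3, and that in 2D was 6 without replicate 2 or 3 of every group or without D2.OR 2D replicate 2. The share of all genes called also fell in these fits, to 31% without replicate 2 of every group and 35.2% without replicate 3 in 3D, and to 24.9% and 31.8% in 2D.

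The H2B genes Hist2h2be and Hist3h2ba were lower in D2.OR in both cultures. Hist2h2be (chr3:96221119-96223738), an H2B gene known for polyadenylated transcripts in differentiated cells, had whole counts in every library. It was at 3.93, 5.90 and 6.03 TPM in D2A1 2D and 4.75, 4.27 and 4.40 TPM in D2A1 3D. In D2.OR it was at 1.46, 0.97 and 0.79 TPM in 2D and 1.11, 1.3 and 1.03 TPM in 3D. All D2.OR libraries lay below all D2A1 libraries, with a log2 fold change of -2.16 (SE 0.27, edgeR adjusted p = 0.00022) in 2D and -1.99 (SE 0.27, adjusted p = 0.000285) in 3D. Hist3h2ba (chr11:58948920-58949533), an H2B gene of the Hist3 cluster, had 25 to 76 counts in each D2A1 library. It had 8, 1 and 1 counts in D2.OR 2D and 1, 1 and 2 counts in D2.OR 3D. It was lower in D2.OR in both cultures, at adjusted p = 0.000813 in 2D and 0.000195 in 3D (edgeR), but with counts this small in D2.OR the size of the fold change is poorly known. Its neighbor Hist3h2a did not differ in 3D, where D2A1 had 5.44, 4.24 and 4.47 TPM and D2.OR 5.52, 4.50 and 4.05 TPM (log2 fold change -0.04, SE 0.35). In 2D it was at 5.44, 15.3 and 8.19 TPM in D2A1 and 5.94, 3.27 and 4.21 TPM in D2.OR, which overlap, with a log2 fold change of -0.96 (SE 0.36, edgeR adjusted p = 0.0522) that passed in 8 of 24 alternatives.

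Hist1h4i, the most abundant H4 gene, was also lower in D2.OR. It was at 15.6, 11.4 and 10 TPM in D2A1 2D and at 6.73, 6.36 and 5.34 TPM in D2.OR 2D. In 3D it was at 18.6, 22.2 and 25.6 TPM in D2A1 and at 10.1, 11 and 9.2 TPM in D2.OR. The groups did not overlap in either culture, with log2 fold changes of -0.86 (SE 0.23, edgeR adjusted p = 0.0127) in 2D and -1.19 (SE 0.23, adjusted p = 0.00207) in 3D. The H3 gene Hist2h3b had log2 fold changes of -1.33 (SE 0.43, adjusted p = 0.0281) in 2D and -1.88 (SE 0.40, adjusted p = 0.00381) in 3D in the same test. Hist1h2be, at 1.44, 1.61 and 1.04 TPM in D2A1 2D and 0.84, 0.47 and 0.62 TPM in D2.OR 2D, was lower in 2D (log2 fold change -0.91, SE 0.26, adjusted p = 0.0183). Hist1h3h, with 9.77, 14.8 and 20.7 counts in D2A1 2D and 0, 2.20 and 0.90 counts in D2.OR 2D, was lower in 2D at adjusted p = 0.00411.

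Of the members that were higher in D2.OR, Hist1h1a stood out in 2D and Hist1h1c and Hist1h2bc in 3D. Hist1h1a, another linker histone gene, had 0, 4 and 1 counts in D2A1 2D and 23, 27 and 12 counts in D2.OR 2D (adjusted p = 0.00371). In 3D it had 6, 13 and 16 counts in D2A1 and 33, 22 and 18 counts in D2.OR, and that difference did not pass the test (adjusted p = 0.107, edgeR). Hist1h2bc was 25.7, 18.7 and 16.6 TPM in D2A1 3D and 66.3, 62.2 and 46.3 TPM in D2.OR 3D, with no overlap. Its log2 fold change was 1.5 (SE 0.12, adjusted p = 1.52e-05), and it passed in all 24 alternatives. Hist1h1c was 75.8, 51.7 and 42.5 TPM in D2A1 3D and 153, 103 and 71.5 TPM in D2.OR 3D. These ranges overlap, but within each batch D2.OR was higher, by 0.99, 0.94 and 0.72 on the log2 CPM scale, and the log2 fold change was 0.89 (SE 0.17, adjusted p = 0.00206). In 2D neither gene passed the test, with log2 fold changes of 0.27 (SE 0.12, adjusted p = 0.0877) for Hist1h2bc and -0.11 (SE 0.17, adjusted p = 0.606) for Hist1h1c.

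**Figure D3:**
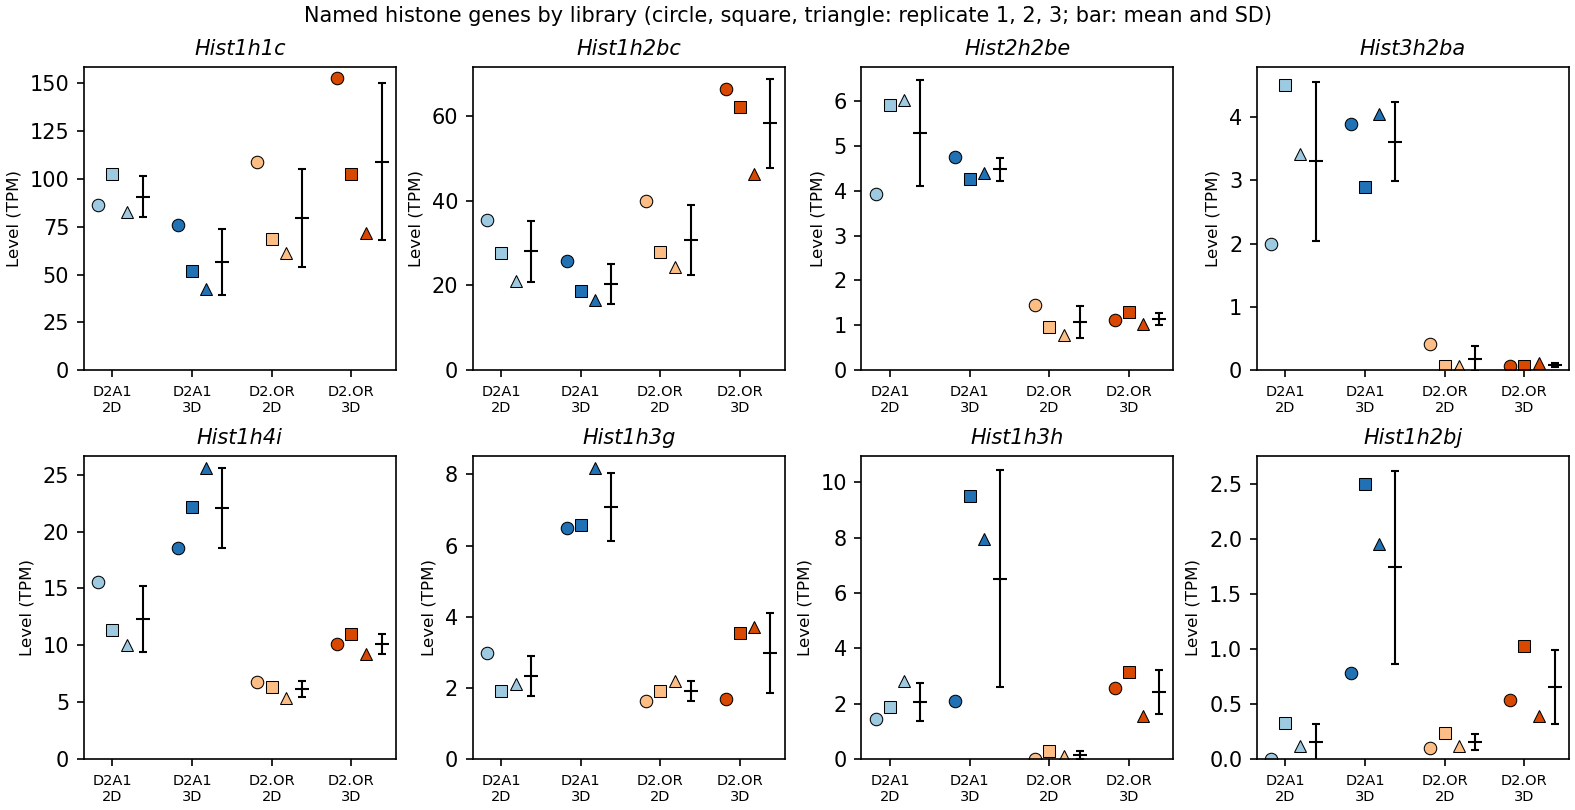
Level (TPM, linear axes from 0) of 8 histone genes in each of the 12 libraries, with circles, squares and triangles for replicates 1, 2 and 3 and bars for the mean and SD of each group (n = 3). Hist2h2be and Hist3h2ba are high in D2A1 in both cultures, Hist1h2bc is highest in the 3 libraries of D2.OR 3D, and Hist1h3g is highest in the 3 libraries of D2A1 3D.

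The second comparison asked how Matrigel changed histone gene expression in each line. In D2A1, 4 members were higher in 3D and none was lower, where 1.37% of all genes were higher and 2.12% lower. Of the 53 members tested 44 had a positive log2 fold change, with a median of 0.85 against 0.0037 for all genes, of which 50.4% were positive. At an unadjusted p under 0.05 there were 19 higher and 3 lower members, beside 2495 higher and 2787 lower of all 16823 genes. By DESeq2, 8 members were higher and 3 lower (16.9%, where 11.9% of all genes were called), with 2 of the 4 edgeR calls among them. DESeq2 was run without the filter on low counts. Its shares of members and of all genes, here and below, are of 65 and 29824 genes, not the same base as edgeR's. By limma on log2(TPM + 0.1), 7 were higher and 2 lower (17%, where 6.75% of all genes were called). All 12 H3 genes and all 11 H4 genes tested had a positive value, with medians of 1.14 and 0.98. The medians were 0.70 for the 13 H2B genes, 0.35 for the 12 H2A genes and -0.06 for the 5 H1 genes.

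The 4 members that rose in D2A1 were low in 2D. Hist1h3g, an H3 gene (chr13:23535422-23535951), was at 2.97, 1.91 and 2.11 TPM in 2D and 6.48, 6.59 and 8.19 TPM in 3D (log2 fold change 1.71, SE 0.34, edgeR adjusted p = 0.041). Hist1h2bj, an H2B gene (chr13:22043214-22043676), had 0, 3.22 and 1.12 counts in 2D and 9.51, 29.1 and 23.9 counts in 3D (adjusted p = 0.025). Hist1h3b (chr13:23752267-23752886) had 2.56, 5.63 and 5.01 counts in 2D and 13.5, 30.7 and 33.1 counts in 3D (log2 fold change 2.19, SE 0.44, adjusted p = 0.042). Hist1h4b (chr13:23757013-23757409) had 5.18, 11.4 and 3.70 counts in 2D and 19.7, 45.6 and 28.5 counts in 3D (log2 fold change 1.96, SE 0.45, adjusted p = 0.0497). In each of them all 3D libraries lay above all 2D libraries, and 3 of the 4, all but Hist1h3g, end at the stem-loop shown above. Over all members tested, 18 of 53 (34%) had every D2A1 3D library above every 2D library and 2 had every one below it, where 14.2% and 11.8% of all genes did.

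These calls depended on single libraries and on the block. Without the batch term no member passed in either line, by edgeR, where 0.309% of all genes passed in D2A1 and 0.119% in D2.OR. Without replicate 1 of both lines and cultures, 21 members were higher and 2 lower in D2A1, and the 4 were among them. Leaving out D2A1 2D replicate 1 alone gave 12 calls and D2A1 3D replicate 1 alone gave 9. No member was called without replicate 2 or replicate 3 of every group, nor after leaving out replicate 2 or 3 of D2A1 2D, D2A1 3D or D2.OR 2D alone or replicate 2 of D2.OR 3D alone. Of all genes, too, 0 were called without replicate 2 or replicate 3 of every group. Leaving out D2.OR 3D replicate 3 gave 1 call and D2.OR 3D replicate 1 gave 2. The fit without replicate 1 also called 36.3% of all genes, against 3.48% with it.

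In D2.OR, 2 members were higher in 3D and none was lower, where 0.838% of all genes were higher and 0.785% lower (1.62% in all). Here too 44 of 53 members had a positive log2 fold change, with a median of 0.79 against 0.0020 for all genes. Among them 18 were higher and 0 lower at an unadjusted p under 0.05, beside 1382 higher and 1585 lower of all 16823 genes. DESeq2 called 3 higher and 0 lower, or 4.62%, near its 3.97% of all genes. Hist1h2bc was at 40.1, 27.9 and 24.3 TPM in 2D and 66.3, 62.2 and 46.3 TPM in 3D, and rose by 0.88 on the log2 scale (SE 0.12, edgeR adjusted p = 0.0132). Hist1h3h, an H3 gene (chr13:21717659-21718069), had 0, 2.20 and 0.90 counts in 2D and 21.1, 28 and 13.7 counts in 3D (adjusted p = 0.041). In both genes the cultures did not overlap. All 3D libraries lay above all 2D libraries in 16 of the 53 members (30.2%) and below them in 0, where 10.2% and 12.5% of all genes did. The call of Hist1h2bc was lost without the block (adjusted p = 0.176), and without replicate 2 or 3 of D2.OR 2D or D2.OR 3D (adjusted p from 0.073 to 0.108). Both calls were lost without replicate 2 or replicate 3 of D2.OR 2D, of D2.OR 3D or of every group, and the count was 6 without replicate 1 of every group. It was 1 without replicate 2 or 3 of D2A1 2D or D2A1 3D and without replicate 1 of D2.OR 2D or D2.OR 3D. The fit without replicate 1 of every group called 10.7% of members and 8.38% of all genes. Of all genes, 0 were called without replicate 2 of every group and 0.00589% without replicate 3. By class, all 11 H4 genes and all 5 H1 genes had a positive value, with medians of 0.84 and 0.66, as did 12 of 13 H2B genes (median 0.90), 10 of 12 H3 genes (0.73) and 6 of 12 H2A genes (0.26).

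Hist1h1c and Hist1h2bc differed from most members in having opposite values in the lines. Hist1h1c was at 86.6, 103 and 82.9 TPM in D2A1 2D, above all 3 D2A1 3D libraries (75.8, 51.7 and 42.5 TPM), and at 109, 68.7 and 61.3 TPM in D2.OR 2D, against 153, 103 and 71.5 TPM in D2.OR 3D. Within batches its log2 CPM in 3D minus 2D was -0.17, -0.83 and -0.82 in D2A1 and 0.35, 0.55 and 0.22 in D2.OR. Neither change passed the test on its own, with log2 fold changes of -0.63 (SE 0.17, edgeR adjusted p = 0.0619) in D2A1 and 0.37 (SE 0.17, adjusted p = 0.289) in D2.OR. Hist1h2bc was at 35.4, 27.6 and 21.2 TPM in D2A1 2D and 25.7, 18.7 and 16.6 TPM in D2A1 3D. Its log2 CPM in 3D minus 2D was -0.43, -0.40 and -0.20 in the D2A1 batches (adjusted p = 0.0895 by edgeR) and 0.59, 1.13 and 0.92 in the D2.OR batches.

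The difference between these culture effects was tested as the interaction of cell line and culture, and no member passed by edgeR, where 0.0238% of all genes did (0.0178% higher and 0.00594% lower). At an unadjusted p under 0.05 there were 8 members, beside 2997 of all 16823 genes, which is a like share. DESeq2 called 2 members (3.08%, where 3.13% of all genes were called) and limma 1 at each pseudocount. Without D2A1 2D replicate 1 the count was 5, without replicate 1 of every group 3, and without D2A1 3D or D2.OR 3D replicate 1 it was 1. Hist1h2bc had the smallest p, with an interaction of 1.23 on the log2 scale (SE 0.17, edgeR adjusted p = 0.0665), and passed in 8 of 23 alternatives, whose adjusted p ran from 4.04e-09 (DESeq2) to 0.847. For Hist1h1c the interaction was 1.0 (SE 0.24, adjusted p = 0.122), and it passed in 3 of 23 alternatives. For both, the interaction was positive in all 3 batches. Over the 53 members the median interaction was 0.01, with 27 positive, and over the 16 with a mean of at least 50 counts it was 0.53, with 14 positive.

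The histone genes were then set beside the genes that mark proliferating cells, as lists of 43 S phase and 54 G2/M genes in common use. In D2A1 the families had like medians in 3D against 2D, 0.85 for the histone genes, 0.85 for the S phase genes and 0.87 for the G2/M genes, with 42 of 43 and 54 of 54 positive. The 16 histone genes with a mean of at least 50 counts had a median of 0.23. By limma the medians of the lists were 0.44, 0.81 and 0.78 on log2(TPM + 1). On log2(TPM + 0.1) they were 0.80, 0.84 and 0.80. In D2.OR the histone median was 0.79, and those of the S phase and G2/M genes were 0.35 and 0.23. By limma on log2(TPM + 1) they were 0.35, 0.37 and 0.27, so the gap was not seen on that scale. On log2(TPM + 0.1) they were 0.71, 0.38 and 0.28, and the gap was seen. For the interaction, 27 of 53 histone genes were positive, while 0 of 43 S phase genes (median -0.51) and 0 of 54 G2/M genes (median -0.62) were. Few of these genes passed the test singly. In D2A1, 1 S phase gene (Gmnn, for the replication inhibitor geminin) and 4 G2/M genes (Cdc20, Ccnb2, Nusap1 and Psrc1) rose and none fell, by edgeR (2.33% and 7.41%, where 3.48% of all genes were called). At an unadjusted p under 0.05, 38 and 52 were higher, beside 5282 of all 16823 genes in either direction, and DESeq2 called 34 and 50 (79.1% and 92.6%, against 11.9% of all genes). In D2.OR none passed by edgeR, DESeq2 or limma and none had an unadjusted p under 0.05. No interaction passed by edgeR, with 4 and 12 genes at an unadjusted p under 0.05, beside 2997 of all 16823. DESeq2 called 1 in each list, both lower, where 3.13% of all genes were called. Without replicate 1 of every group, 42 S phase and 53 G2/M genes rose in D2A1, and the interaction called 35 and 41 of them lower, beside 2 histone genes higher and 1 lower (5.36%), where 17.8% of all genes were called. Without replicate 3 of every group the interaction was nearer 0, with medians of -0.16 and -0.27 and with 12 of 43 S phase genes and 1 of 54 G2/M genes positive. Within batch 1 it was positive in 35 S phase and 29 G2/M genes, in batch 2 in 2 and 1, and in batch 3 in none of either list.

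Batch by batch, the mean log2 CPM of the 53 histone genes had the same order of batches as the proliferation genes in D2A1 and another order in D2.OR. In D2A1, 3D minus 2D was 0.31, 0.90 and 1.17 for the histone genes in batches 1, 2 and 3, 0.08, 1.21 and 1.43 for the S phase genes and 0.24, 1.06 and 1.48 for the G2/M genes. In D2.OR it was 0.21, 0.84 and 0.87 for the histone genes, 0.45, 0.46 and 0.11 for the S phase genes and 0.23, 0.40 and 0.07 for the G2/M genes. The histone value was thus the highest of the 3 in batches 2 and 3 of D2.OR and the lowest in batches 2 and 3 of D2A1. For the 16 members with a mean of at least 50 counts the histone value was -0.11, 0.31 and 0.79 in D2A1 and 0.09, 1.10 and 1.35 in D2.OR. These 16 include Hist1h2bq and Hist1h2br, which share reads. As medians over the 16 it was -0.04, 0.21 and 0.66 in D2A1 and 0.31, 1.10 and 0.93 in D2.OR. No p was computed for these list values, since genes are not replicates.

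**Figure D4:**
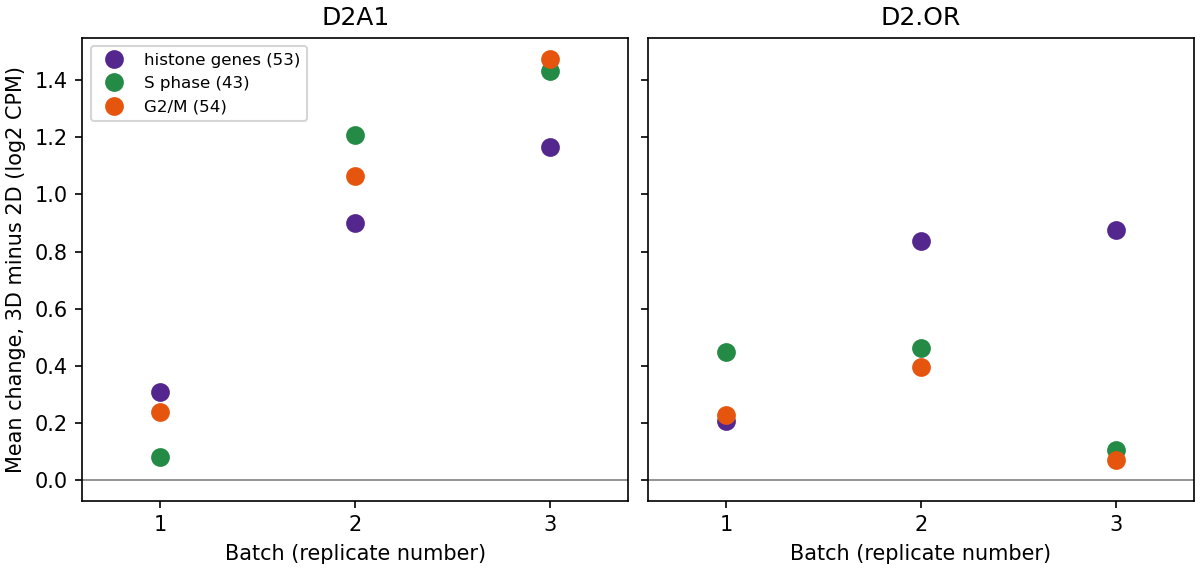
Mean log2 CPM in 3D minus 2D within each batch, for the 53 tested histone genes, 43 S phase genes and 54 G2/M genes, in D2A1 (left) and D2.OR (right). In D2A1 all 3 lists are higher in batches 2 and 3 than in batch 1, and in batch 3 of D2.OR the histone genes are at 0.87 with the other lists near 0.

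The single markers of proliferation had larger log2 fold changes in 3D against 2D in D2A1 than in D2.OR, as their lists had. Mki67, which encodes the Ki-67 protein of cycling cells, was at 33.2, 20.5 and 18.8 TPM in D2A1 2D and 40.0, 56.4 and 64.2 TPM in D2A1 3D (log2 fold change 1.16, SE 0.34, edgeR adjusted p = 0.0687). In D2.OR it was at 17.8, 36.6 and 43.1 TPM in 2D and 33.2, 53 and 50.8 TPM in 3D (0.47, SE 0.33, adjusted p = 0.497). Pcna, the sliding clamp of DNA polymerase, had log2 fold changes of 1.05 (SE 0.28, adjusted p = 0.0608) in D2A1 and 0.38 (SE 0.27, adjusted p = 0.505) in D2.OR. Those of Top2a, which untangles replicated DNA, were 0.89 in D2A1 and 0.29 in D2.OR, and those of Ccnb1, the mitotic cyclin B1, were 0.98 and 0.29. None of these passed the test. In D2A1 2D, replicate 1 had the highest level of Mki67 and Pcna, and in D2.OR 2D it had the lowest.

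Between the lines in 3D, 20 of the 43 S phase genes were lower in D2.OR and 0 were higher, with a median of -0.72, and 36 of the 54 G2/M genes were lower and 1 was higher, with a median of -0.96, where 26.1% of all genes were lower and 27.7% higher. Without replicate 2 of every group 6 S phase and 17 G2/M genes were lower (31% of all genes called in either direction), and without replicate 3 they were 8 and 30 (35.2%). Among those that were lower were the polymerase subunit gene Pold3 (log2 fold change -0.70, SE 0.11, edgeR adjusted p = 0.000537) and, with the smallest p values of the G2/M list, Psrc1 (-2.37, SE 0.16) and Anp32e (-1.47, SE 0.17). In 2D, 4 S phase genes were lower in D2.OR and 0 higher (9.3% of the list), and 8 G2/M genes were lower and 3 higher (20.4%), where 49.8% of all genes differed. The direction in 2D rested on replicate 1. Without it in every group, 16 S phase genes were higher and 4 lower, with a median of 0.23 in place of -0.18, and 20 G2/M genes were higher and 7 lower, with a median of 0.17 in place of -0.22. Without replicate 1 the median of the 56 histone genes tested was negative, at -0.53 in 2D and -0.85 in 3D. Whether the share of genes called differed between these lists and the histone genes was not tested.

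**Figure D5:**
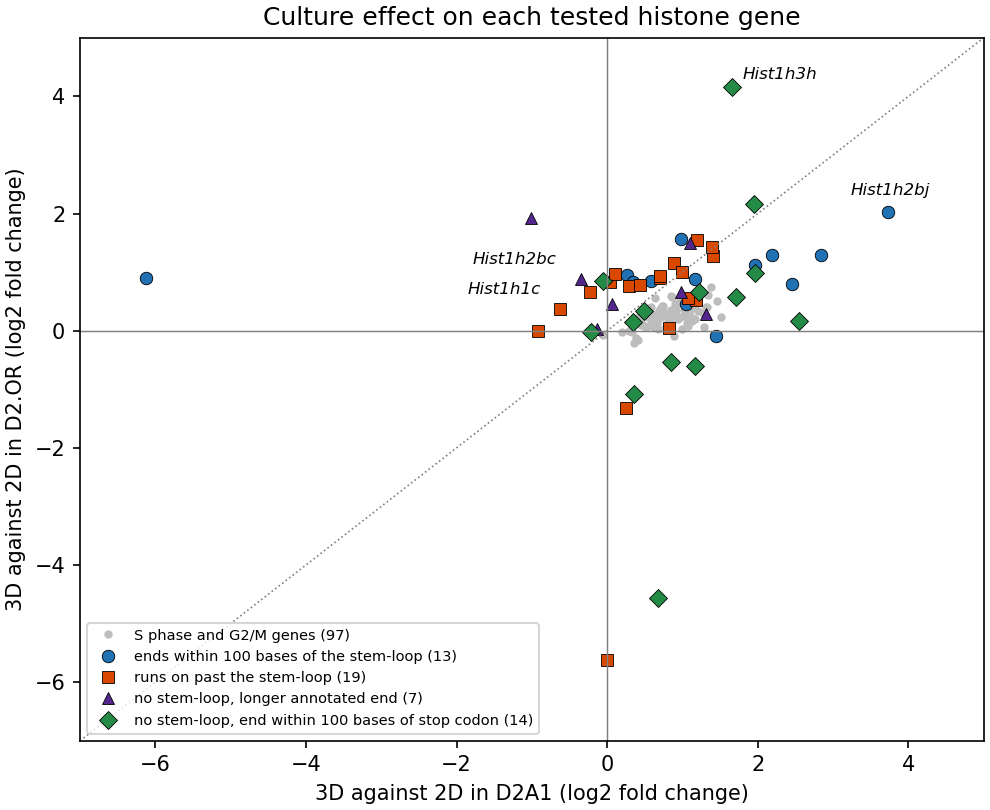
Log2 fold change in 3D against 2D in D2A1 (horizontal) and in D2.OR (vertical) for each of the 53 tested histone genes, colored by how the annotated transcript ends, and for the 43 S phase and 54 G2/M genes in grey, with a dotted line of equal change. The grey points lie below the line, and 7 histone genes, with Hist1h1c and Hist1h2bc among them, are negative in D2A1 and positive in D2.OR.

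By transcript end, the genes that end at the stem-loop had positive values in both lines. For 12 of the 13 tested the log2 fold change in 3D was positive in D2A1 (median 1.16) and for 12 of 13 in D2.OR (median 0.90). The 7 with a longer end and no stem-loop include Hist1h2bq and Hist1h2br. The medians of the 7 were 0.07 in D2A1, with 4 positive, and 0.65 in D2.OR, with 7 positive. The 19 that run on past the stem-loop had medians of 0.70 and 0.78, and the 14 that end near the stop codon 1.01 and 0.25. In the sum of TPM, the genes that end at the stem-loop came to 0.994, 2.04 and 2.11 times their 2D level in the D2A1 batches and 1.28, 2.77 and 2.15 times in the D2.OR batches.

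The genes that make and process histone mRNA were measured as a list of 22, of which 3 are also in the cell cycle lists. None of the 22 passed in 3D against 2D in either line by edgeR. At an unadjusted p under 0.05 there were 9 in D2A1 and 1 in D2.OR, beside 5282 and 2967 of all 16823 genes. DESeq2 called 6 higher and 1 lower in D2A1 (31.8%, against 11.9% of all genes) and 0 in D2.OR (against 3.97%). SLBP's gene Slbp was at 83.2, 58.6 and 67.3 TPM in D2A1 2D and 82.2, 100 and 109 TPM in D2A1 3D (log2 fold change 0.55, SE 0.16, edgeR adjusted p = 0.0711). In D2.OR it was at 49.1, 57.7 and 66.9 TPM in 2D and 61.1, 63.8 and 64.1 TPM in 3D (0.08, SE 0.16, adjusted p = 0.836), and in 3D it was lower than in D2A1 (-0.65, SE 0.16, adjusted p = 0.0084). Npat, the coactivator of histone gene transcription that cyclin E and CDK2 phosphorylate, ranged from 13.5 to 19.7 TPM over all libraries and passed in no contrast. Lsm11, a protein of the U7 snRNP, was at 3.55 to 5.48 TPM in D2A1 2D and 5.54 to 6.43 TPM in D2A1 3D, and it too passed in no contrast. Between the lines, 10 of the 22 were lower and 1 higher in D2.OR in 3D (50%, where 53.8% of all genes differed), and 6 lower and 2 higher in 2D (36.4%, where 49.8% differed). The count in 3D was 1 without replicate 2 of every group and 2 without replicate 3, and that in 2D was 1 and 3. Among those called were the cleavage factor gene Cstf2 (-1.01, SE 0.16, adjusted p = 0.000865 in 3D) and, on the higher side, Upf1, which takes part in histone mRNA decay (0.54, SE 0.10, adjusted p = 0.00225 in 2D).

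Of 11 histone genes outside the clusters, most of which are known to be expressed outside S phase too and to have poly(A) tails, levels ranged widely. The group means of H2afy2, a macroH2A gene, were 0.253 to 0.523 TPM, and Cenpa, for the centromeric H3 variant, is also one of the G2/M genes. H3f3b, which encodes the replacement histone H3.3, was at 672 to 1114 TPM in D2A1 2D and 307 to 335 TPM in D2.OR 2D, and was lower in D2.OR (log2 fold change -1.25, SE 0.14, edgeR adjusted p = 0.000101). H3f3a, which encodes the same protein, had the opposite direction, at 765 to 1150 TPM in D2A1 2D and 1090 to 1247 TPM in D2.OR 2D (0.37, SE 0.18, adjusted p = 0.112). In 3D it was higher in D2.OR, at 866 to 1108 TPM against 537 to 786 TPM in D2A1 (0.51, SE 0.18, adjusted p = 0.0345), and passed in 15 of 24 alternatives. H1fx, a linker histone gene, was at 64.2 to 75.8 TPM in D2A1 3D and 9.48 to 19.7 TPM in D2.OR 3D (-2.36, SE 0.22, adjusted p = 3.30e-05). Of the 11, 7 were lower and 1 higher in D2.OR in 3D (72.7%, where 53.8% of all genes differed) and 4 lower and 1 higher in 2D (45.5%, where 49.8% differed). The count in 3D was 4 without replicate 2 or without replicate 3 of every group, and that in 2D was 2 and 3. In 3D against 2D in D2A1, 1 (H2afj, an H2A variant gene) rose and none fell by edgeR, where 1.37% of all genes were higher and 2.12% lower. At an unadjusted p under 0.05, 6 were higher and 1 lower, beside 2495 higher and 2787 lower of all 16823 genes. DESeq2 also called 6 higher and 1 lower (63.6%, against 11.9% of all genes). Among 19 genes of histone chaperones and deposition, 7 were lower and 2 higher in D2.OR in 3D (47.4%), and 3 lower and 4 higher in 2D (36.8%), both below the shares of all genes. Without replicate 2 of every group 3 were lower and 1 higher in 3D, and 2 lower and 2 higher in 2D. Without replicate 3 they were 5 and 1 in 3D. Rbbp4, a subunit of the chromatin assembly factor CAF-1, was lower in 3D (-0.64, SE 0.09, adjusted p = 0.000425), and Cabin1, of the HIRA complex that deposits H3.3, was higher in 2D (0.86, SE 0.09, adjusted p = 5.79e-05). None of the 19 passed in 3D against 2D in D2A1 or D2.OR by edgeR. At an unadjusted p under 0.05, 10 were higher and 1 lower in D2A1 and 1 of each in D2.OR. Of all 16823 genes, 5282 in D2A1 and 2967 in D2.OR were under that limit. DESeq2 called 8 higher and 0 lower in D2A1 (42.1%, against 11.9% of all genes) and 0 higher and 1 lower in D2.OR (5.26%, against 3.97%).

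Hist4h4, alone on its chromosome, and the members named for germ cells were at the low end. Hist4h4 had 8, 4 and 11 counts in D2A1 2D, 7, 51 and 40 in D2A1 3D, 0, 3 and 0 in D2.OR 2D and 0, 10 and 1 in D2.OR 3D, and was lower in D2.OR in 3D (adjusted p = 0.0241, edgeR). Hist1h1t, the linker histone gene of the testis, had 0 to 4 counts in any library. Hist1h2aa had 1 count in a single library and Hist1h2ba had 0 in all 12, where 3 counts would be the limit that a count of 0 allows in a library. Both are neighbors known from the testis.

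The cultures were checked against markers of the cells they could hold. Of 6 mammary epithelial markers, 5 were at a mean of at least 1 TPM in D2.OR and 2 in D2A1, where Krt8 was at 1.27 TPM in 2D and 1.39 TPM in 3D against 859 and 353 TPM in D2.OR, and Cdh1 was at 0.113 TPM in 2D and 0.11 TPM in 3D. Krt5 was near 0 in both lines. Krt8 and Cdh1 were higher in D2.OR in 2D by 9.56 and 9.81 on the log2 scale, and the mesenchymal markers Vim (1.93 in 2D) and Col1a1 (6.39 in 3D) were higher in D2.OR too. The leukocyte list summed to 0.02 to 0.61 TPM. Csf1r, the 1 gene of it that was tested, did not pass in 3D against 2D in D2A1 (adjusted p = 0.0567, edgeR). It was called lower in D2.OR than in D2A1 in 3D (log2 fold change -2.61), at 0.01 to 0.07 TPM against 0.04 to 0.53 TPM. The endothelial, adipocyte and erythroid list summed to 0.17 to 2.5 TPM. Of that list Pecam1 alone passed the filter on low counts, at 0.04 to 0.40 TPM, and the highest sum was mostly Adipoq, at 2.03 TPM in D2.OR 3D replicate 2. Leukocytes and endothelium were thus near 0 in every library.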

How the data were processed

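RNA from 12 cultures was sequenced on Illumina HiSeq instruments. Per the labels and the study's methods, the authors checked reads with FastQC 0.11.4, trimmed them with Trimmomatic 0.32, aligned them to GRCm38 with STAR 2.5.3 and quantified genes of GENCODE M15 with RSEM 1.3.0. The deposited files hold RSEM's expected count for each gene, for which the authors' pipeline shared out reads that fit several genes. They also hold TPM, which the authors scaled for effective length and library. Effective lengths, another deposited column, served as a description only. TPM was the same in the series table and the library files.

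Expected counts were rounded and tested with edgeR 4.0.16 (R 4.3.3) by the quasi-likelihood test, after TMM scaling and edgeR's filter by group, on all 12 libraries in a model of group plus batch. P-values were adjusted by Benjamini-Hochberg over 16823 genes (threshold 0.05). Log2 CPM used a prior count of 2. Counts of a gene varied by 21.2% between replicates beyond counting error (edgeR's common estimate). The labels give the replicate number as the batch. Deviations from the group means correlated at a median r of 0.267 in 18 pairs of libraries with the same number (0.0758 to 0.511) and -0.195 in 36 pairs with other numbers. Scripts were tested on simulated data.

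Named were the 2 most abundant genes of each class, every gene called in a contrast or the 6 with the smallest p (the 1 with the smallest p where none was called), Hist1h1c, Hist1h2bc, Hist2h2be, the genes known from the testis, Hist4h4 and the Hist3 genes, and, outside the family, 4 proliferation markers, Slbp, Npat, Lsm11 and the 2 genes of smallest p in each other list. 1 gene that this rule names is not reported here. H2afj, H3f3a, H2afy2, Adipoq, Cenpa, Gmnn, Cdc20, Ccnb2, Nusap1, Hist2h2aa1 and the genes shown for their sequence alone were named after their values were seen. The genes and lists were chosen with earlier results of these data known. Alternatives were no batch term, other scalings and filters, leaving out libraries, only the libraries compared, limma 3.58.1 on log2(TPM + 1) or log2(TPM + 0.1), and DESeq2 1.42.0.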

Additional observations from a re-analysis of the deposited data

Results flagged for a closer look

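For 3 histone genes every D2A1 batch was lower in 3D than in 2D and every D2.OR batch was higher. This pattern was seen in 5.66% of the 53 histone genes tested and in 3.44% of all 16823 genes. The interaction of cell line and culture was 1.23 on the log2 scale for Hist1h2bc, 1.0 for Hist1h1c and 2.92 for Hist1h2br, and none passed edgeR's test (adjusted p = 0.0665, 0.122 and 0.229). Hist1h2br shares reads with Hist1h2bq, and the sum of that pair was 0.665, 0.673 and 1.21 times its 2D level in the D2A1 batches and 1.55, 2.66 and 1.79 times in the D2.OR batches.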

How the results depend on the processing

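Each member called in a contrast was followed in that contrast, and Hist1h1c and Hist1h2bc in the interaction. They kept direction and side of the threshold in 613 comparisons with an alternative, lost a call in 166 and gained one in 11, and none of these reversed. Counts of calls between the lines in 2D were 9, and 5 with at least 10 counts in every library or with only the 6 libraries compared (6 to 12 leaving out libraries). In 3D they were 17, and 7 with at least 10 counts (8 to 25). For 3D against 2D in D2A1 there were 4, and 0 without the replicate block, 2 with at least 10 counts, 0 with only the 6 libraries, 9 by limma on log2(TPM + 0.1) and 11 by DESeq2 (0 to 23). In D2.OR there were 2, and 0 without the replicate block, 1 with at least 10 counts and 1 by limma on log2(TPM + 1) (0 to 6). For the interaction there were 0, and 1 with no filter, 1 and 1 by limma and 2 by DESeq2 (0 to 5). The block ended no other call count. The median log2 fold change in 2D was -0.54, and -0.61 without the block, -0.70 with library totals, -0.27 and -0.71 by limma, -0.61 for the genes with a mean of at least 50 counts and -0.81 for the 7 with whole counts (-0.81 to -0.41). In 3D it was -0.58, and -0.68, -0.31 and -0.52 with library totals and by limma, 0.043 and -0.46 for those gene groups (-0.86 to -0.39). In D2A1 it was 0.85, and 0.44 by limma on log2(TPM + 1), 0.23 and 0.24 for those groups (0.53 to 1.33). In D2.OR it was 0.79, and 0.35 by limma on log2(TPM + 1) (0.54 to 0.90). For the interaction it was 0.01, and -0.10 without the block, 0.53 and 0.17 for those groups (-0.49 to 0.23). The group of at least 50 counts was chosen after seeing the data. Summed as CPM, with no scaling for length, the family came to 137, 121, 119 and 172 in D2A1 2D, D2A1 3D, D2.OR 2D and D2.OR 3D, its TPM without Hist1h1c to 156, 203, 121 and 217, and leaving out libraries its TPM ranged over 236 to 266, 252 to 264, 170 to 221 and 303 to 363. Strict filters test fewer genes, and otherwise the cause was not tested. Of the 67 members, 53 passed the filter on low counts, and the others were not tested at this depth.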

Other observations

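Histone genes of the H2A and H2B classes often lie head to head with a shared upstream region. Of 13 divergent pairs with starts at most 1000 bases apart, 12 joined an H2A and an H2B gene, with 175 to 305 bases between the starts (median 258.5). In 6 of these pairs the higher gene was under 3 times the lower in mean TPM over the 12 libraries, as for Hist1h2ag at 0.595 TPM and Hist1h2bj at 0.676 TPM. In 2 pairs it was at least 10 times the lower. Hist1h2bc was at 34.4 TPM and its neighbor Hist1h2ac at 0.419 TPM (82.0-fold), and Hist1h2bq, which shares reads with Hist1h2br, was at 10.2 TPM, while Hist1h2ao had 3.88 expected counts in 1 library and 0 in the other 11, so no fold is given. Hist1h2br was 9.77 times its neighbor Hist1h2ap. In each of these 3 pairs the H2B gene was the higher one.

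Among the 16 histone genes with a mean of at least 50 counts, 15 had a positive log2 fold change in 3D in D2.OR, with a median of 0.86, and 10 in D2A1, with a median of 0.23. At an unadjusted p under 0.05, 11 of them were higher and 0 lower in D2.OR, beside 1382 higher and 1585 lower of all 16823 genes. In D2A1, 2 of them were higher and 3 lower, beside 2495 higher and 2787 lower of all genes.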
